A study of Mus musculus with 6 samples.

Results

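The galectin genes of challenged macrophages were examined in 3 wild type (WT) and 3 progranulin knockout (PGRN KO) libraries. Members were chosen by gene name, namely Lgals1, Lgals3, Lgals4, Lgals8 and Lgals9, together with Lgals3bp, which encodes a binding protein of galectin-3. All 6 were found among the 54532 genes of the table, and 5 of them reached a mean of at least 1 FPKM (fragments per kilobase of gene model, scaled to the size of the library) over the 6 libraries, as did 8882 genes in all. Lgals4 did not.

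Each library was made from polyadenylated RNA of macrophages that the labels describe as recruited from the peritoneal cavity of C57BL/6J mice. The cells carried the WT or the progranulin knockout genotype, and each culture received Candida albicans, a yeast, for 6 hours, with 1 fungal cell added for each macrophage according to the labels. No library shows the cells without the fungus. The methods of the study, however, name bone marrow-derived macrophages as the source of the RNA, and its text gives another ratio of fungus to cells, so that neither the source of the cells nor the dose was settled. The knockout mice were bought from another supplier than the WT mice, so that genotype and colony of origin cannot be told apart. Nothing in the labels says that the 3 libraries of a genotype came from separate mice or cultures, and p-values measure the spread between these libraries, which may be technical.

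Galectins are small lectins that bind beta-galactosides on glycoproteins and glycolipids. They are made in the cytosol and leave the cell without a signal peptide. Outside the cell they crosslink surface receptors, and inside it they bind glycans that become exposed when a phagosome or lysosome is torn. Galectin-1 is the prototype form with a single carbohydrate recognition domain, galectin-3 joins such a domain to a long flexible tail, and galectin-4, galectin-8 and galectin-9 are tandem-repeat forms that carry a pair of domains on one chain. Galectin-3 is abundant in macrophages and is known to bind beta-mannosides of C. albicans. Galectin-8 calls autophagy to damaged vesicles, galectin-9 is a ligand of TIM-3 and is induced by interferon, and the product of Lgals3bp is a secreted scavenger receptor family glycoprotein that is also induced by interferon.

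Upstream sequence is shown for the member with the largest change and for the most abundant member, with a short stretch for Lgals3bp. Sequences are those of RefSeq on GRCm38.p6, and 5 of the 6 members were found in the promoter table. A window of 250 bases before to 50 bases after the RefSeq start was searched on both strands for the core of the interferon-stimulated response element, TTCNNNGAA (the gamma-activated site), CACGTG (the E-box of lysosomal genes) and TGANTCA (the AP-1 site). AANNGAAA, a shorter core bound by interferon regulatory factors, lies inside the response element core and was added after the sequences were seen. In the lines that follow, each 5′ to 3′ on the strand of the gene, capitals mark the response element core or AANNGAAA on either strand. The Lgals9 stretch is chr11:78984947-78985174 (minus strand), the Lgals9 start is chr11:78984888-78984917 (minus strand), the Lgals3bp stretch is chr11:118401955-118401984 (minus strand), and the Lgals3 stretch is chr14:47373610-47373812 (plus strand). The long Lgals9 stretch lies before the GENCODE gene model, and both short stretches lie in exons of that model. The Lgals3 stretch ends just before the first exon of a GENCODE transcript, but it lies inside the gene model, in an intron of another transcript that starts farther upstream.
Lgals9 upstream: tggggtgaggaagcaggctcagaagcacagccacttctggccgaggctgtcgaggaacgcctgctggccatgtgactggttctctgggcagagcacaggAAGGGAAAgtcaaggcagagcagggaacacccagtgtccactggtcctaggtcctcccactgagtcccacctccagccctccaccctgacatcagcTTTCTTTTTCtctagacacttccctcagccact
Lgals9 start: agctgtggTTTCTGTTTCctagctcagccc
Lgals3bp start: tgttttctgaaAATCGAAActaggtgaggt
Lgals3 upstream: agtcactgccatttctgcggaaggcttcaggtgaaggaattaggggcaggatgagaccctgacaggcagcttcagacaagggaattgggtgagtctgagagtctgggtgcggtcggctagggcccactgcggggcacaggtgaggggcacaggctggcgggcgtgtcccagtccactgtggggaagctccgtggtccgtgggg

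The response element core was found in the Lgals9 window at 2 places on the opposite strand, of which the upstream match began 55 bases before the start and the other lay just inside the transcript. It was found in 3.44% of the 32851 windows in the table. The Lgals3bp window held AANNGAAA, as did 23.9% of all windows, but not the longer core. This match lay 14 bases before the RefSeq start. No GENCODE transcript of Lgals3bp starts within 50 bases of that start, and 133 of the 250 bases before it are exonic in that model. TTCNNNGAA, CACGTG and TGANTCA were found in 8.30%, 7.15% and 7.81% of all windows. These 3 were found in no window of a member, and none of the 5 patterns was found in the windows of Lgals3, Lgals4 and Lgals8. The window of Lgals8 lies in an intron of the GENCODE model, which has other starts. Such matches describe letters only.

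The libraries held 15996786 to 17551619 counted fragments. Grn, the targeted gene, reached 323 to 337 FPKM in the WT libraries and was counted with 1, 0 and 1 fragments in PGRN KO replicates 4, 5 and 6. The 8 macrophage markers summed to 11600 to 12600 (WT) and 10400 to 14400 (PGRN KO) FPKM, most of it Lyz2, Cd14 and Cd68. Fcgr1 was at 4.24 to 9.95 and Mertk at 1.14 to 3.84 FPKM over all libraries. Among the 8 markers 1 was called higher in PGRN KO, Mertk, and 1 was called lower. PGRN KO replicate 6 stood apart by gene length. Its FPKM was a median of 1.36 times the mean of PGRN KO replicates 4 and 5 over the 1777 tested genes with the shortest models (at most 1776 bases) and 0.746 times that mean over the 1777 with the longest (at least 6950 bases). Results are therefore also given without it.

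Lgals3 had the highest level of the family. WT replicates 1, 2 and 3 held 1061, 1110.1 and 1056 FPKM of it, and by its mean level it ranked 41 among the 8882 tested genes. Lgals3bp followed, with 435, 457 and 425 FPKM. Lgals1 was at 173, 183 and 186 FPKM, Lgals9 at 119, 128 and 109 FPKM and Lgals8 at 49.2, 51.8 and 49.0 FPKM in the same libraries. The order of levels per gene length was the same in all 6 libraries, and no neighbours in that order overlapped within a genotype.

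Lgals9 was significantly higher in PGRN KO macrophages. Its FPKM was 188, 155 and 193 in PGRN KO replicates 4, 5 and 6, so that every PGRN KO library lay above every WT library. The mean rose from 119 ± 9.53 to 179 ± 20.9 FPKM (SD, n = 3 each). On the log2(FPKM + 1) scale the fold change was 0.58 ± 0.12 (SE), a 1.5-fold difference with a 95% interval of 1.23 to 1.83, and the limma adjusted p over all tested genes was 0.0162. An exact two-sided permutation test returned p = 0.1, below which 3 against 3 libraries cannot go. Lgals9 passed the threshold of 0.05 in 15 of 18 alternative settings (adjusted p 0.00173 to 0.0763). It was lost without WT replicate 1, WT replicate 3 and PGRN KO replicate 4 (0.0763, 0.0697 and 0.0542) and was 0.0108 without PGRN KO replicate 6.

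Lgals8 was significantly higher as well. PGRN KO replicates 4, 5 and 6 held 71.1, 64.4 and 62.2 FPKM of Lgals8, and the genotypes did not overlap. The mean rose from 49.98 ± 1.6 to 65.9 ± 4.64 FPKM (SD, n = 3 each), with a log2 fold change of 0.39 ± 0.09 (SE), a 1.31-fold difference (95% interval 1.13 to 1.52) and a limma adjusted p of 0.0223. Lgals8 passed in 12 of 18 settings (adjusted p 0.000668 to 0.117). The call was lost when WT replicates 1, 2 or 3 were left out (0.117, 0.0771 and 0.0906), likewise for PGRN KO replicates 4 and 5 (0.0677 and 0.0511) and, with all libraries, on the TPM scale (0.0502). Of its exonic bases, 155 are shared with Heatr1 on the opposite strand, and the sources used here do not say whether strand was used in counting. Heatr1 had means of 4.56 ± 0.386 (WT) and 3.60 ± 0.823 (PGRN KO) FPKM (limma adjusted p 0.194).

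**Figure D1:**
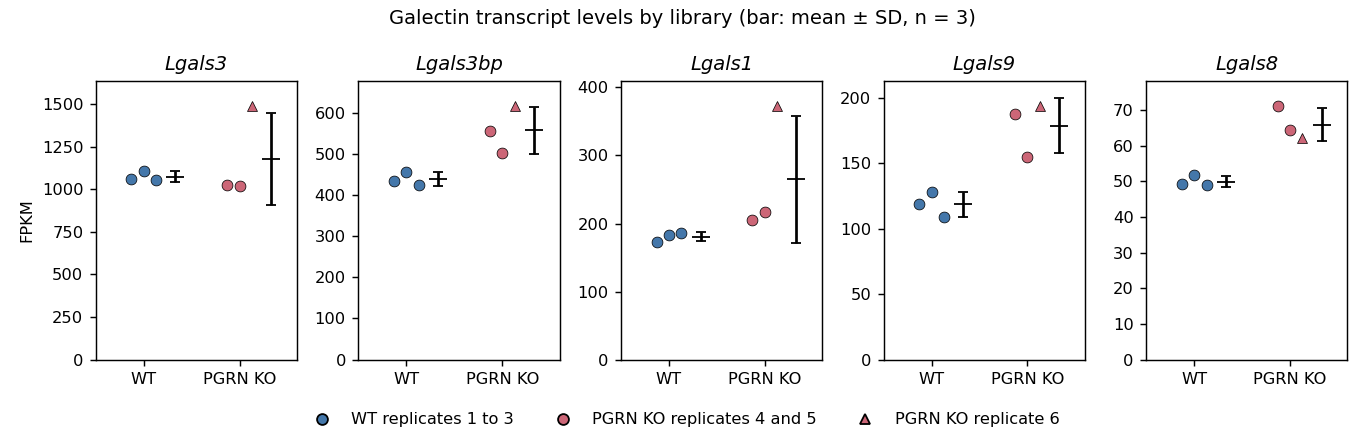
FPKM of the 5 tested members in each library (y axes start at 0), with the mean and SD of 3 libraries beside the points. Every PGRN KO library lies above every WT library for Lgals3bp, Lgals1, Lgals9 and Lgals8, and PGRN KO replicate 6 (triangle) is far above the other PGRN KO libraries for Lgals3 (1488 FPKM) and Lgals1 (372 FPKM).

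Thus 2 of the 5 tested members passed the threshold, both of them higher. Over all tested genes 10.4% were called higher and 13.8% lower, 24.2% in all. Of the called genes 42.8% were higher, a share that was 60.3% on the TPM scale (every library set to an equal sum of FPKM) and 62.9% when libraries were scaled by their summed fragments. The genotypes did not overlap, with PGRN KO on the higher side, for 4 of the 5 members and for 21.2% of all tested genes (48.8% in either direction). Without PGRN KO replicate 6, 4 of the 5 members passed, all higher, against 16.2% of all tested genes.

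Lgals3bp lay close to the threshold. PGRN KO replicates 4, 5 and 6 held 555, 501 and 616 FPKM, each above the highest WT library at 457 FPKM. The means were 439 ± 16.4 (WT) and 557 ± 57.3 (PGRN KO) FPKM, with a log2 fold change of 0.34 ± 0.11 (SE), a 1.27-fold difference (95% interval 1.06 to 1.52) and a limma adjusted p of 0.0653. The call depended on the setting, since Lgals3bp passed in 7 of 18 (adjusted p 0.00472 to 0.218). It passed without PGRN KO replicate 6 (0.0227), after correction for gene length (0.0186), with quantile normalization (0.00472) and on the TPM scale (0.0113). Its log2 fold change was 0.27 to 0.45 in all 18 settings.

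Lgals1, with 206 and 216 FPKM in PGRN KO replicates 4 and 5, was at 372 FPKM in replicate 6. These values lay above the WT range of 173 to 186 FPKM, but 1 library set the size of the difference. The means were 181 ± 6.98 and 265 ± 93.2 FPKM. On the log2 scale this was 0.50 ± 0.22 (SE), which did not pass (limma adjusted p 0.146), and the 95% interval reached from a 0.979-fold to a 2.03-fold level. Without PGRN KO replicate 6 the log2 fold change fell to 0.22 and passed, with an adjusted p of 0.0225. It passed in 5 of 18 settings (adjusted p 0.0160 to 0.315). With 903 bases the Lgals1 gene model is short, and 9.7% of tested genes are shorter. Its level in replicate 6 was 1.76 times the mean of replicates 4 and 5, against the median of 1.36 for the shortest genes. With all libraries and a correction of each library for gene length, the log2 fold change of Lgals1 was 0.40 (adjusted p 0.0594).

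Lgals3 did not pass the threshold in any setting. Its FPKM was 1024, 1019 and 1488 in PGRN KO replicates 4, 5 and 6, so that replicates 4 and 5 lay below the WT libraries and replicate 6 above them. The means were 1076 ± 29.9 (WT) and 1177 ± 270 (PGRN KO) FPKM, with a log2 fold change of 0.11 ± 0.17 (SE), a 95% interval of 0.819-fold to 1.41-fold and a limma adjusted p of 0.667. Without PGRN KO replicate 6 the direction turned, with a log2 fold change of -0.07 (adjusted p 0.309), and with the gene length correction it was 0.01 (0.925). Over the 18 settings the adjusted p was 0.208 to 0.925.

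**Figure D2:**
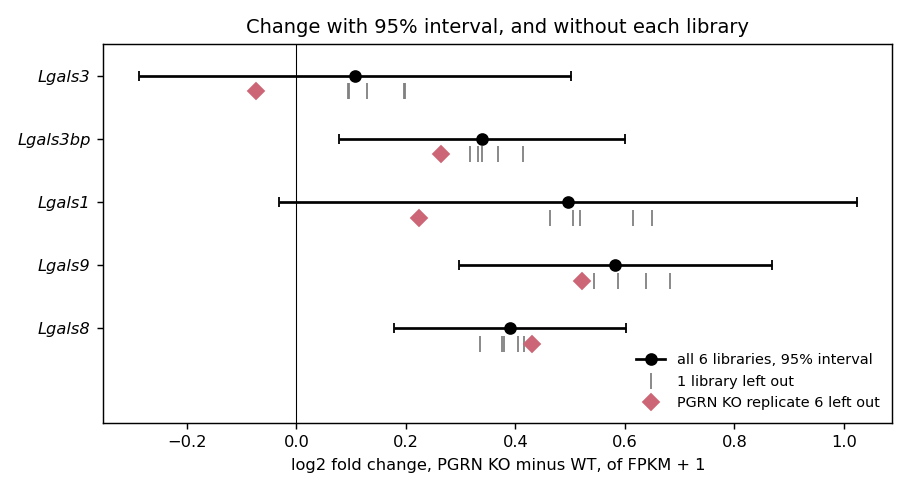
Log2 fold change of FPKM + 1 (x axis, PGRN KO minus WT) of the 5 tested members, with the limma 95% interval and, under each, the values with 1 library left out. Leaving out PGRN KO replicate 6 (diamond) moves Lgals1 from 0.50 to 0.22 and Lgals3 from 0.11 to -0.07, while Lgals9 stays between 0.52 and 0.68 and Lgals8 between 0.34 and 0.43.

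The make-up of the galectin transcripts was compared as well, which was chosen after the values were seen. The gene length trend of PGRN KO replicate 6 also acts on such shares, since the gene models of Lgals1, Lgals3, Lgals9 and Lgals8 span 903, 1858, 2137 and 3688 bases, and its part in them was not tested. Lgals3 made up 75.7%, 75.4% and 75.5% of the summed FPKM of Lgals1, Lgals3, Lgals8 and Lgals9 in WT replicates 1, 2 and 3. It made up 68.8%, 70.1% and 70.3% in PGRN KO replicates 4, 5 and 6. All PGRN KO libraries were thus lower, replicate 6 included, with means of 75.5% ± 0.16 and 69.7% ± 0.83 (SD, n = 3 each; exact two-sided permutation p = 0.1, the smallest possible). The share of Lgals9 went from 8.32% ± 0.48 to 10.8% ± 1.74 and that of Lgals1 from 12.7% ± 0.53 to 15.4% ± 1.94 (exact permutation p = 0.1 each). Shares of the same sum are tied to each other, so these are not separate results. The share of Lgals8 was 3.51% ± 0.01 and 4.05% ± 0.98, and it was 2.94% in PGRN KO replicate 6, below all WT libraries (exact permutation p = 0.4).

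Against 100 FPKM of Lgals3, there were 11.2, 11.5 and 10.3 FPKM of Lgals9 in WT replicates 1, 2 and 3, against 18.3, 15.2 and 13 FPKM among the PGRN KO libraries. The genotypes did not overlap in this ratio. For Lgals3bp the ratio was 41.0, 41.2 and 40.3 in WT and 54.2, 49.2 and 41.4 in PGRN KO, so that replicate 6 was barely above WT.

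**Figure D3:**
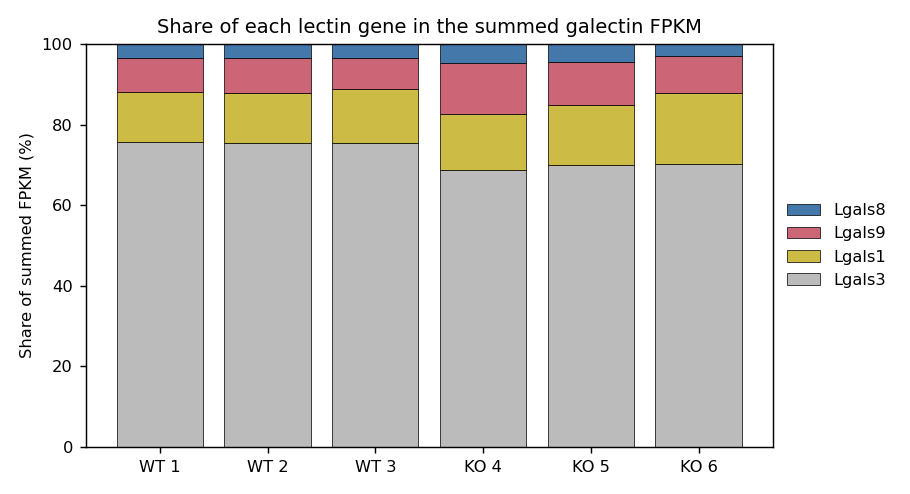
Share in percent (y axis) of Lgals3, Lgals1, Lgals9 and Lgals8 in their summed FPKM, as 1 stacked bar for each library. The Lgals3 share is 75.4% to 75.7% in WT and 68.8% to 70.3% in PGRN KO.

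Other galectins were near or at 0. Lgals4, a tandem-repeat galectin of the gut epithelium, was counted with 0, 1 and 0 fragments in WT replicates 1, 2 and 3 and with 4, 1 and 1 fragments in PGRN KO replicates 4, 5 and 6. The ratio of its fragments was 5.56 (95% exact interval 0.674 to 256, counting error only), and no difference was detectable at this depth. A count of 0 allows up to 3 fragments, which correspond to 0.0684 to 0.0876 FPKM of Lgals4 in a library. Lgals2 and Lgals12 had no fragment in any library. Lgals7 was counted with 2 fragments in WT and 1 in PGRN KO, as was Grifin, a galectin-related gene of the eye lens. Lgalsl, which encodes a galectin-related protein, had 2 fragments in WT and 18 in PGRN KO, none of its libraries exceeding 0.0982 FPKM. Lgals6 was not analysed here.

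Cells of other types were looked for by their markers, since in bulk samples fewer cells of a type and less RNA per cell cannot be told apart. Of 6 mast cell markers 2 reached a mean of 1 FPKM, and both were called higher in PGRN KO. The summed level of all 6 was 2.29 to 3.19 (WT) and 9.72 to 14.0 (PGRN KO) FPKM, without overlap. Kit did not follow this sum, at 0.218 to 0.423 (WT) and 0.13 to 0.343 (PGRN KO) FPKM. The 5 B cell markers summed to 1.5 to 2.49 and 6.62 to 8.92 FPKM, without overlap, and 2 of them were called higher. The 5 fibroblast markers, none of which reached a mean of 1 FPKM, summed to 0.864 to 0.877 and 1.86 to 3.43 FPKM. Neutrophil markers summed to 48.3 to 53.0 (WT) and 21.3 to 26.2 (PGRN KO) FPKM, almost all of it S100a8, which was called lower. Ly6g, Elane and Cxcr2 had no fragment. Over all tested genes 10.4% were called higher and 13.8% lower. The 8 epithelial and mesothelial markers reached at most 0.775 FPKM in sum. The 4 dendritic cell markers summed to 1.84 to 2.27 (WT) and 1.1 to 1.44 (PGRN KO) FPKM, without overlap. Xcr1 and Flt3 were lower in PGRN KO, whereas Clec9a overlapped and Zbtb46 was at 0.532 to 0.583 and 0.571 to 0.764 FPKM. The 4 NK cell markers summed to 0.357 to 0.433 and 0.592 to 1.08 FPKM, also without overlap. Most of this sum was Gzma, at 0.269 to 0.297 and 0.517 to 0.92 FPKM, and Ncr1, Klrb1c and Klra8 overlapped. The 5 T cell markers summed to 2.15 to 3.14 and 2.75 to 4.81 FPKM, and the 3 eosinophil markers to 0.0214 to 0.199 and 0 to 0.0415 FPKM, with overlap. The 5 markers of large peritoneal macrophages summed to 7.19 to 7.67 (WT) and 9.37 to 10.1 (PGRN KO) FPKM. Of these, Icam2 was called higher, with 2.94 to 3.26 and 4.49 to 5.43 FPKM, Gata6 was at 3.78 to 4.26 and 3.84 to 5.07 FPKM, and Timd4 was at most 0.204 FPKM. The part of these cells in the galectin values was not tested.

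Next, genes that galectins act with were taken from lists. Of 23 ligands and receptors 20 were tested. Of these, 3 were significantly higher (15%) and 4 lower (20.0%) in the knockout, against 10.4% and 13.8% of all tested genes. The median log2 fold change was -0.21, against -0.03 over all tested genes. Cd40, a costimulatory receptor that galectin-9 binds, rose by 1.06 on the log2 scale, with 17.4 ± 2.72 and 38.2 ± 10.8 FPKM (limma adjusted p 0.0149). Mertk, an engulfment receptor for which galectin-3 is a ligand, rose from 1.41 ± 0.229 to 3.24 ± 0.514 FPKM (limma adjusted p 0.00640). Cd44, the hyaluronan receptor and a partner of several galectins, fell by 0.87 on the log2 scale, its FPKM being 103 ± 5.84 in WT and 56.0 ± 6.31 in PGRN KO (limma adjusted p 0.00356). Alcam, an adhesion molecule bound by galectin-8, fell from 81.2 ± 3.28 to 53.5 ± 6.47 FPKM (limma adjusted p 0.0117). The calls of Cd44 and Mertk held in each fit without 1 library. That of Cd40 was lost without WT replicates 1 and 3 (0.0637 and 0.0617), and that of Alcam without WT replicates 1 and 2 (0.0659 and 0.0570).

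The other 3 called genes of this list were named after their values were seen. Havcr2, which encodes TIM-3, was at 2.94 ± 0.0275 FPKM in WT and fell to 2.02 ± 0.361 FPKM (-0.39 on the log2 scale, limma adjusted p 0.0428), in the opposite direction to its ligand Lgals9. Trem2, a lipid receptor, rose from 30.9 ± 1.14 to 55.7 ± 17.3 FPKM (limma adjusted p 0.0292), and P4hb, a disulfide isomerase bound by galectin-9, fell from 385 ± 13.5 to 283 ± 23.9 FPKM (limma adjusted p 0.0221). These 3 calls were each lost without WT replicates 1, 2 and 3 (adjusted p 0.0703 to 0.136). That of P4hb was also lost without PGRN KO replicates 4 and 5 (0.0732 and 0.0584), and that of Havcr2 without PGRN KO replicate 5 (0.0837). Clec7a, which encodes the beta-glucan receptor dectin-1 and was likewise named after its values were seen, at 384 ± 21.9 and 376 ± 9.55 FPKM, did not pass (limma adjusted p 0.854). Without single libraries the list held 1 to 4 higher and 1 to 10 lower genes, the highest counts of both being those without PGRN KO replicate 6. In that fit 1438 of all 8882 tested genes were higher and 2230 lower.

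Of 31 enzymes and transporters that build or trim the glycans galectins recognise, 22 were tested. A single gene was significantly higher (4.55%) and 3 were lower (13.6%), against 10.4% and 13.8% of all tested genes. The median log2 fold change was -0.002. B3gnt3, which extends poly-N-acetyllactosamine chains, rose by 0.64 on the log2 scale, with 1.82 ± 0.185 and 3.39 ± 0.0647 FPKM (limma adjusted p 0.00508), and its call held without each library. C1galt1, the core O-glycan galactosyltransferase, fell from 4.34 ± 0.529 to 2.70 ± 0.576 FPKM (limma adjusted p 0.0357). Neu1, the lysosomal sialidase, fell from 66.6 ± 1.68 to 46.9 ± 5.21 FPKM (limma adjusted p 0.0154). B4galt5, a galactosyltransferase and the remaining gene called lower, was named after its values were seen and went from 102 ± 1.57 to 76.4 ± 5.81 FPKM (limma adjusted p 0.0190). The 3 lower calls were lost without WT replicates 1, 2 and 3 (adjusted p 0.0665 to 0.133), that of C1galt1 also without PGRN KO replicate 5 (0.0677) and that of Neu1 without PGRN KO replicate 4 (0.0502). Mgat5, the branching enzyme that raises galectin-3 binding and also named after its values were seen, was at 5.18 ± 0.459 and 5.05 ± 1.37 FPKM (limma adjusted p 0.840). Without PGRN KO replicate 6 the list held 4 higher and 6 lower genes, against 1438 and 2230 of all 8882 tested genes.

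**Figure D4:**
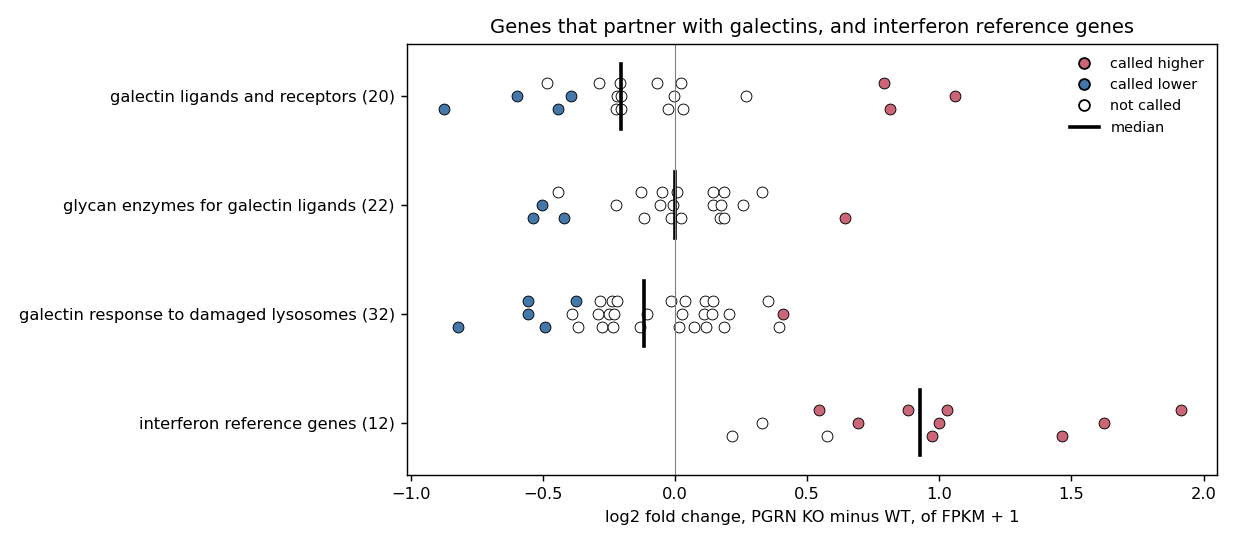
Log2 fold change of FPKM + 1 (x axis, PGRN KO minus WT) of the tested genes of 4 lists, with the number tested in brackets, filled points for genes past a limma adjusted p of 0.05 and a bar at the median. The medians are -0.21, -0.002, -0.12 and 0.93 from top to bottom.

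Of 36 genes that act when galectins mark a damaged lysosome 32 were tested, 26 of which did not pass the threshold. Among these 32 genes, 1 was significantly higher (3.12%) and 5 were lower (15.6%), against 10.4% and 13.8% of all tested genes. The median log2 fold change was -0.12. Pi4k2a, a lipid kinase that acts early in lysosome repair, rose from 69.6 ± 3.81 to 93.0 ± 8.48 FPKM (limma adjusted p 0.0284). Atg12, part of the conjugation machinery of autophagy, fell by 0.82 on the log2 scale, its FPKM being 88.3 ± 1.61 in WT and 49.6 ± 3.18 in PGRN KO (limma adjusted p 0.00202), and its call held in all 18 settings. Rb1cc1, a subunit of the ULK complex, fell from 3.99 ± 0.345 to 2.43 ± 0.673 FPKM (limma adjusted p 0.0413). Map1lc3b, Prkaa1 and Plaa, named after their values were seen, were also lower (limma adjusted p 0.0328, 0.0159 and 0.0407). Apart from Atg12, each of these calls was lost without WT replicates 1, 2 and 3 (adjusted p 0.0605 to 0.150). Without PGRN KO replicate 4 those of Pi4k2a, Rb1cc1, Map1lc3b and Plaa were lost (0.0658, 0.0835, 0.0855 and 0.0569), and without PGRN KO replicate 5 those of Map1lc3b and Plaa (0.0767 and 0.0711). Without PGRN KO replicate 6 the list held 3 higher and 11 lower genes, against 1438 and 2230 of all 8882 tested genes. Lamp1, a lysosomal glycoprotein from the list of ligands and again named after its values were seen, was at 475 ± 22.1 and 573 ± 19.4 FPKM (limma adjusted p 0.0798).

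Since Lgals9 and Lgals3bp are known interferon targets, 12 interferon reference genes were set beside them. The list and its direction were known from earlier results on these libraries and are no independent evidence. Of the 12 genes 9 were significantly higher and none was lower, against 10.4% and 13.8% of all tested genes. Their median log2 fold change was 0.93, whereas the log2 fold change of Lgals9 was 0.58 and that of Lgals3bp 0.34. Mx1, an antiviral GTPase, had the largest difference, 1.91 on the log2 scale, its FPKM being 17.5 ± 2.39 in WT and 68.7 ± 11.1 in PGRN KO (limma adjusted p 0.00119), followed by Ifit3, with 76.1 ± 11.9 and 241 ± 69.2 FPKM (limma adjusted p 0.00452). Both held without each library. The 3 remaining genes, named after their values were seen, did not pass, namely Isg15, Bst2 and Irf7 (limma adjusted p 0.516, 0.382 and 0.0775). The count was 6 to 10 with 1 library left out.

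Lgals9 and Lgals3bp are both on chromosome 11, as is Grn. Positions are those of GRCm38. Lgals9 (ENSMUSG00000001123, chromosome 11, 78962974 to 78984946) lies 23.4 Mb and Lgals3bp (ENSMUSG00000033880, chromosome 11, 118392751 to 118402092) 16.0 Mb from Grn, on either side of it. Of 765 tested genes on this chromosome 10.8% were called higher, against 10.3% of the 8117 tested genes elsewhere. Lgals8 (ENSMUSG00000057554, chromosome 13, 12439415 to 12464944), Lgals1 (ENSMUSG00000068220, chromosome 15, 78926725 to 78930465), Lgals3 (ENSMUSG00000050335, chromosome 14, 47367751 to 47386160) and Lgals4 (ENSMUSG00000053964, chromosome 7, 28833854 to 28841708) are on other chromosomes. Apart from Lgals8, no member shares exonic bases with another gene or 31-base words with transcripts of other genes.

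Genes with the most similar pattern were found by the distance between log2(FPKM + 1) values, each taken from the gene mean, over the 6 libraries. Lgals9 was closest to Mtmr14 (distance 0.076), Slc25a12 and Rab3ip. Lgals8 was closest to Iqsec2 (0.086), Tbc1d22b and Pls3, and Lgals3bp to Hdac1 (0.075), Ube2r2 and Msra. The pattern of Lgals1, set by its high value in PGRN KO replicate 6, was closest to those of Pcbd2 (0.087), Ap2s1 and Ndufv1. That of Lgals3, which was also highest in PGRN KO replicate 6 (1488 FPKM), was closest to the ribosomal protein genes Rps3a1 (0.018), Rplp0 and Rpl6. The part of the gene length trend of that library in these distances was not tested. Many genes lie this close, since 37 were within 0.2 of Lgals9 and 258 of Lgals3, and the points share the same 6 libraries.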

How the data were processed

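The deposited table holds FPKM per gene for 6 libraries. Per the labels and the methods of the study, the authors removed low-quality reads and reads with adaptors, aligned the rest to the mouse genome (mm10, GRCm38) and counted fragments per gene. The submitters' processing notes name HISAT2 2.0.5 and featureCounts 1.5.0-p3, whereas the study's methods name HISAT and HTSeq. The authors tested genes with DESeq2, a count model. Deposited values are FPKM, so limma 3.58.1 in R 4.3.3 was used on log2(FPKM + 1), a scale that understates the change of low genes (genes with a mean of at least 1 FPKM, moderated variances following a trend on the mean, a two-sided test without covariates, Benjamini-Hochberg over all 8882 tested genes, threshold 0.05). FPKM times gene length gave whole multiples of 1 step per library for 100.0% of values above 0, within 0.001 of a step. The steps gave the fragments, 16907608 ± 811029 per WT and 17071110 ± 478695 per PGRN KO library (SD), and the size the authors had divided by, which was 0.925 to 1.09 times their sum. Intervals on fragments cover counting error only. The limma script was tested on simulated data.

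Members and gene lists were chosen with earlier results of these data known. Named genes were Grn, all members, the other galectin genes, up to 2 called genes with the largest change in each direction per list, and the 3 nearest patterns per tested member, predicted gene models and pseudogenes left out. Genes named outside this rule are marked in the text as chosen after their values were seen, apart from marker genes and Heatr1, which overlaps Lgals8. Libraries without the fungus were not analysed here, and protein sequences were not used here. Of the identifiers, 99.77% were in GENCODE M21 (GRCm38), 98.26% of these with the same coordinates. Alternatives were pseudocounts of 0.1 and 0.01, no filter, a mean of at least 5 FPKM, the TPM scale, quantile normalization, scaling by the summed fragments, no trend, sample quality weights, voom on the recovered fragments, a loess correction for gene length (span 0.5), the same without PGRN KO replicate 6, and leaving out each library.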

Additional observations from a re-analysis of the deposited data

How the results depend on the processing

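No paired analysis was possible because the labels give no pairing of WT with PGRN KO libraries. The replicate numbers used here are the running sample numbers of the labels. Lgals1, Lgals3bp, Lgals8 and Lgals9 were higher in PGRN KO under all 18 alternatives. Lgals3 turned its direction with sample quality weights (-0.051), without PGRN KO replicate 6 (-0.074) and with the gene length correction without this library (-0.064). It ran from -0.074 to 0.199 with 1 library left out. Each of the 3 settings removed PGRN KO replicate 6 or gave it a low weight (0.0899). With 1 library left out the count of 2 called members became 0 to 4. It was 0 without WT replicate 1, WT replicate 3 and PGRN KO replicate 4, where fewer samples entered, and 4 without PGRN KO replicate 6. The count was also 4 with quantile normalization, sample quality weights, and the gene length correction without PGRN KO replicate 6. In these settings 1069, 1757 and 1621 of all 8882 tested genes were called higher, and 1113, 2468 and 2038 lower.

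Of all tested genes 2151 were called, 921 up and 1230 down. Without a filter, with 22912 genes tested, these numbers were 1366, 603 and 763. They were 4225 (1757 and 2468) with sample quality weights, and 3659 (1621 and 2038) with the gene length correction without PGRN KO replicate 6. They were 713 to 3668 (331 to 1438 and 382 to 2230) with 1 library left out. With a mean of at least 5 FPKM 529 were higher. The TPM scale gave 608 and the sum of fragments 695 lower genes. Higher genes then made up 60.3% and 62.9% of those called, against 42.8% before. In the lists of partner genes, without the interferon reference genes, 5 genes were higher and 12 lower. These became 3 and 6 without a filter, 12 and 27 with sample quality weights, 12 and 22 with the gene length correction without PGRN KO replicate 6, and 2 to 11 and 2 to 27 with 1 library left out. The gene length correction gave 8 higher genes, and the TPM scale and the sum of fragments each gave 5 lower genes. The cause of these changes was not tested. Depth limits Lgals4 and the other galectins near 0.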
